A study of Mus musculus with 10 samples.

Results

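Loss of 1 copy of Arid1a was compared with intact Arid1a in MYC-driven liver tumours of mice, over 7 of the 10 ATAC-seq libraries of the series. The libraries were those titled Het (n = 3) and WT (n = 4), and the remaining 3, titled Arid1a Homo, served only as an outside reference. The Homo libraries came from mice of about 100 days, older than either group compared. These mice had 2 floxed Arid1a alleles and, unlike the WT mice, Cre. Every library has its own list of called peaks. Peaks that overlapped or touched within a list were merged into regions on chromosomes 1 to 19 and X, and the 7 lists were joined into a union of 11514 regions. A region counted as present in a library where at least 1 bp of it was called there. The union over all 10 lists held 12266 regions.

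All of these mice were of the FVB strain and carried LAP-tta, a doxycycline-controlled activator under a liver promoter, and TRE-MYC, the MYC transgene that it switches on once doxycycline water is taken away. WT tumours were of genotype LAP-tta-Arid1aflfl;TRE-MYC, with 2 floxed Arid1a alleles and no Cre, and came from mice of about 55 days. Het tumours were of genotype LAP-tta-Arid1afl/+;Alb-cre;TRE-MYC, with 1 floxed allele and Cre under the albumin promoter, and came from mice of about 70 days. The genotype, the presence of Cre, the age at collection and, as shown next, the depth of the libraries differ together between the groups and cannot be told apart. The tissue was frozen bulk tumour collected at death, and the albumin promoter acts in hepatocytes and their descendants, so that other cells of a Het tumour would keep both alleles. In bulk tissue a site open in fewer cells and a site less open in each cell cannot be told apart. Nothing in the labels ties a library to 1 mouse of its own, so every p-value below reflects only how much these libraries vary, and that variation may be technical.

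ARID1A is the DNA-binding subunit that defines the BAF form of the SWI/SNF complex, a remodeller that uses the energy of ATP to slide and evict nucleosomes. It helps to keep enhancers and promoters open, and its gene is among those often mutated in human liver cancer. In ATAC-seq a transposase inserts sequencing adapters into DNA that nucleosomes leave free, so that tags pile up over active promoters and enhancers. The height of a peak is given here as its summit fold, the authors' ratio of the pileup of tags plus 1 to the local background plus 1. Its strength within a list is given as a rank percentile of the peak caller's p-value, from 0 for the weakest region to 100 for the strongest.

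The results turn on promoters that were called in one group and missed in the other, and 6 of them show the kind of sequence concerned. Diablo, Ubn1, Copb2 and Tmem218 stand for genes with a peak in every WT and no Het library, each with a summit at the annotated start. Kif13a had a peak in every Het and no WT library, and Coq3 did so once the libraries were brought to equal depth in a random draw. Each line gives the 250 bases before the annotated start from RefSeq (assembly GRCm38.p6, the same coordinates as mm10), 5′ to 3′ on the strand of the gene. Capitals mark matches, on either strand, to 4 of the 7 motifs searched: the E-box CACGTG bound by MYC and MAX, the ETS motif CCGGAAGT, the CCAAT box and the GC box GGGCGG. The order is Diablo (chr5:123524165-123524414, minus strand), Ubn1 (chr16:5049807-5050056, plus), Copb2 (chr9:98563481-98563730, plus), Tmem218 (chr9:37207973-37208222, plus), Kif13a (chr13:46929719-46929968, minus) and Coq3 (chr4:21879603-21879852, plus).
Diablo: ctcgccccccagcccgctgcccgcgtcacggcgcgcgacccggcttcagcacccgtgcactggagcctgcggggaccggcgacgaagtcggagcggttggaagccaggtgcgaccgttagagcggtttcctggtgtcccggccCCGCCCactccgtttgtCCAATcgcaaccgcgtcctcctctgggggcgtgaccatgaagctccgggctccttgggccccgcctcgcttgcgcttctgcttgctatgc
Ubn1: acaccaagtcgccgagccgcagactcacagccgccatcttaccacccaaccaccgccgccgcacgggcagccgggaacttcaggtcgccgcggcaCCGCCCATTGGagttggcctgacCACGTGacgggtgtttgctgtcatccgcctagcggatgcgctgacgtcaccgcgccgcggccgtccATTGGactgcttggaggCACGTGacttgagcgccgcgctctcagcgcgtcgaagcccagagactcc
Copb2: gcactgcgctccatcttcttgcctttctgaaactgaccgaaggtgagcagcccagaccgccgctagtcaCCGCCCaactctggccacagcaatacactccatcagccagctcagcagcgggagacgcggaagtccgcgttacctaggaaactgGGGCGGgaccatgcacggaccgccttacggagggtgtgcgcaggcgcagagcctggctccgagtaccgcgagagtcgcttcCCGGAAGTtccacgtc
Tmem218: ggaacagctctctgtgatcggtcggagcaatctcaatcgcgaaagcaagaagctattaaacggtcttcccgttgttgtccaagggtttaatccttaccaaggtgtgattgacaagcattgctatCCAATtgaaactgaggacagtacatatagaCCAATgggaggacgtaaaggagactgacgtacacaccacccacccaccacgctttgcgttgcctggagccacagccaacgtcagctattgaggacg
Kif13a: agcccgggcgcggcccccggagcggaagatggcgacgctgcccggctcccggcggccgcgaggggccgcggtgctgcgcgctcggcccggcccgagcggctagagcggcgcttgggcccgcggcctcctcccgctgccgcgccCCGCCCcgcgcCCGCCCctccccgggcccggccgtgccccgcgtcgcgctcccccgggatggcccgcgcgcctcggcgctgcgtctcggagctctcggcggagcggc
Coq3: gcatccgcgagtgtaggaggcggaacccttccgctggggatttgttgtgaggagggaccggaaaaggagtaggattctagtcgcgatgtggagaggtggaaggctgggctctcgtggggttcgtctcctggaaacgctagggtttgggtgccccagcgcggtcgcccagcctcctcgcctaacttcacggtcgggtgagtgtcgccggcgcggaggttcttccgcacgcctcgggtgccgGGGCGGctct

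These windows differed in composition. The Kif13a window was 85.6% G or C with 49 CpG sites, the Ubn1 window 67.6% with 31, and the Tmem218 window 49.6% with 12. Ubn1 held a pair of E-boxes, 132 and 49 bases before the start, and Copb2 held an ETS motif 16 bases before it. Over promoter windows of 250 bases before to 50 after the start, the E-box was found in 13.0% of 453 promoters under WT-only regions. It was found in 11.5% of the 4805 promoters under regions of all 4 WT libraries and in 7.91% of all 21045. The ETS motif was found in 15.5%, 10.6% and 5.20% of the same sets, the CCAAT box in 43.9%, 42.1% and 38.5%, and the GC box in 75.9%, 77.4% and 46.7%. The TATA box TATAAA was found in 7.73% of the WT-only set against 4.16% of the set of all 4 WT libraries. The AP-1 motif TGACTCA was found in 1.55% against 2.33%, and the C/EBP motif TTGCGCAA in 0.442% against 0.499%. These shares are descriptions of letters, and none was tested.

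Arid1a itself (chromosome 4, 133679008 to 133756769) had no peak within 1000 bp of either gene end in any of the 7 libraries. Inside the gene, with summits 2261 to 2398 bp from its higher coordinate, a region was called in every WT library, at summit folds of 5.64, 6.78, 4.68 and 5.28. In WT 1 this region spanned chr4:133754054-133754549. Het 1 had it with a fold of 5.81 and Het 3 with 4.62, and Het 2 lacked it. The 2 Het values lay among or just below the WT values. An open region measures neither the recombined allele nor the protein, so this is no check of the Arid1a genotype.

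Het libraries had fewer regions than WT libraries. The WT lists held 9526, 8355, 6731 and 8490 regions and the Het lists 5796, 4666 and 2583. The groups did not overlap, and the means were 8275.5 ± 1155 in WT (SD, n = 4) and 4348 ± 1630 in Het (SD, n = 3). The difference, Het minus WT, was -3927 regions with an exact permutation p of 0.0286, the smallest that 4 against 3 libraries allow (two-sided, adjusted p = 0.049 over 12 measures). Without Het 3, the shortest list, the difference was -3044.5 regions.

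The Het libraries also had a lower background, the tags expected at a peak by chance as recovered from the deposited values. It is read here as depth and was not checked against read totals. The difference in means, -0.620 tags, did not pass (exact permutation p = 0.0571, adjusted 0.0762). The background was 1.75, 1.13, 0.985 and 1.40 tags in WT and 0.696, 0.655 and 0.738 in Het. Accordingly a summit needed at least 10, 8, 7 and 9 tags to be called in WT 1 to 4, and 6, 6 and 7 tags in Het 1 to 3. When tags were removed at random from every summit down to the background of Het 2, the WT lists kept 6631, 7373, 6039 and 6599 regions and the Het lists 5781, 4666 and 2510. The groups still did not overlap at equal depth, with means of 6660.5 ± 547 (SD, n = 4) and 4319 ± 1663 (SD, n = 3), and the difference of -2341.5 regions had an exact permutation p of 0.0286 (adjusted 0.049). Without Het 3 the difference at equal depth was -1437 regions (exact permutation p = 0.0667, the smallest that 4 against 2 libraries allow). Het 1 then lay 258 regions below the lowest WT library, while Het 3 lay 3529 below it. Het 3 had the highest background of the Het libraries, by a small margin, and the fewest regions. Its lowest callable fold was also the highest, 4.60 against 4.01 to 4.23 in the other libraries compared. Thinning cannot restore regions that were never called, and the part of depth in the order of the Het libraries was not tested.

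**Figure D1:**
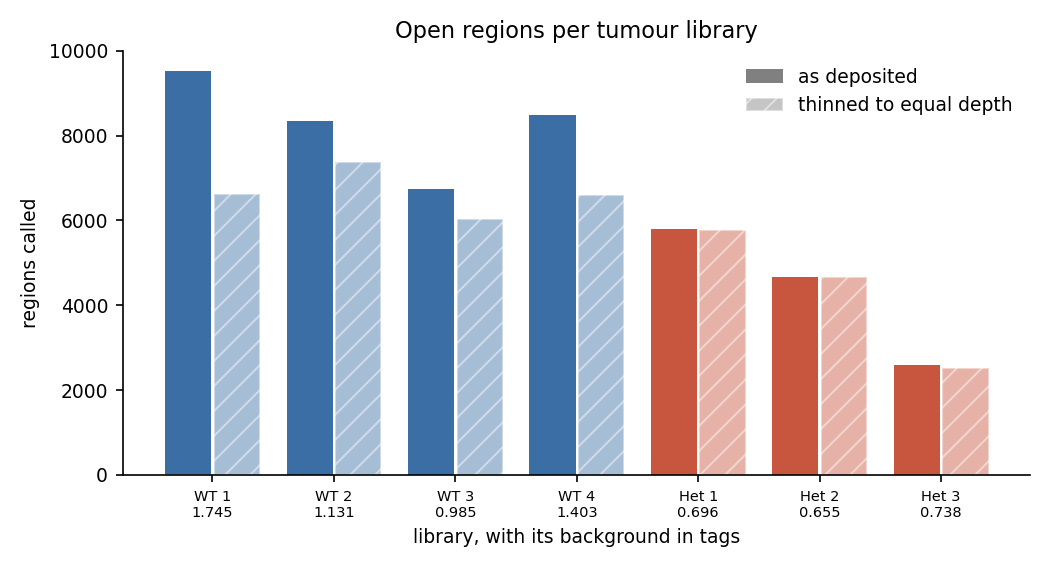
Number of regions called in each library (bars), as deposited (solid) and after thinning to the background of Het 2 (hatched), with the background of each library in tags under its name. All 3 Het bars lie below all 4 WT bars in both versions, and the distance shrinks at equal depth.

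Het regions were narrower as well. The median width over the 1571 regions called in all 7 libraries was 515, 470, 455 and 514 bp in WT and 388, 345 and 291 bp in Het, with no overlap. The means were 488.5 ± 30.6 bp (SD, n = 4) and 341 ± 48.6 bp (SD, n = 3; exact permutation p = 0.0286, adjusted 0.049). Thinning changes the height of a summit and leaves the ends of a region as they were, so the part of depth in the width was not tested. At the same regions the median summit fold was 7.60, 7.62, 7.04 and 7.55 in WT and 7.5, 6.90 and 6.20 in Het. Het 1 lay within the range of WT, and the means of 7.45 ± 0.277 (SD, n = 4) and 6.86 ± 0.651 (SD, n = 3) did not pass (exact permutation p = 0.171).

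The kind of region called was much the same in both groups. Regions within 1000 bp of an end of a protein-coding gene made up 71.8%, 74.4%, 79.5% and 77.0% of the WT lists and 77.9%, 78.5% and 75.3% of the Het lists. All Het values lay within the range of WT, and the difference of 1.56 percentage points did not pass (exact permutation p = 0.514). Chromosome X held 1.54%, 1.45%, 1.31% and 1.496% of WT regions and 1.47%, 1.22% and 0.697% of Het regions (exact permutation p = 0.143), with Het 3 apart.

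Which WT regions were missed in Het depended on how strong they were in WT. The 4 WT libraries had 5171 regions in common, of which Het 1 held 79.7%, Het 2 68.6% and Het 3 39.6%. In the quintile of them with the weakest WT ranks, 25.1% were in no Het library, against 0.484% in the quintile with the strongest ranks. In that strongest quintile Het 1 held 97.4%, Het 2 92.1% and Het 3 66.1%.

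A WT library that is left out gives the scale for these losses. At equal depth, regions shared by 3 WT libraries were found again in the WT library left out at 81.7%, 91.0%, 82.0% and 85.8%, leaving out WT 1 to 4 in turn. Het 1 held 82.6%, 82.9%, 80.1% and 82.0% of the same sets, and so lay within the range of the WT libraries left out except in the set without WT 3. Het 2 held between 69.3% and 73.0% and Het 3 between 39.5% and 42.6%, below every WT library. In the weakest quintile of these regions the library left out held 75.4% on average, Het 1 67.5%, Het 2 56.3% and Het 3 25.7%. In the strongest quintile the values were 94.8%, 94.7%, 88.9% and 66.2%. At equal depth Het 3 thus lay farthest below the WT libraries left out and Het 2 nearer to them, while Het 1 lay above the library left out in the set without WT 1 and below it in the other 3 sets. The sets of regions share WT libraries, and no test was made of these shares.

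**Figure D2:**
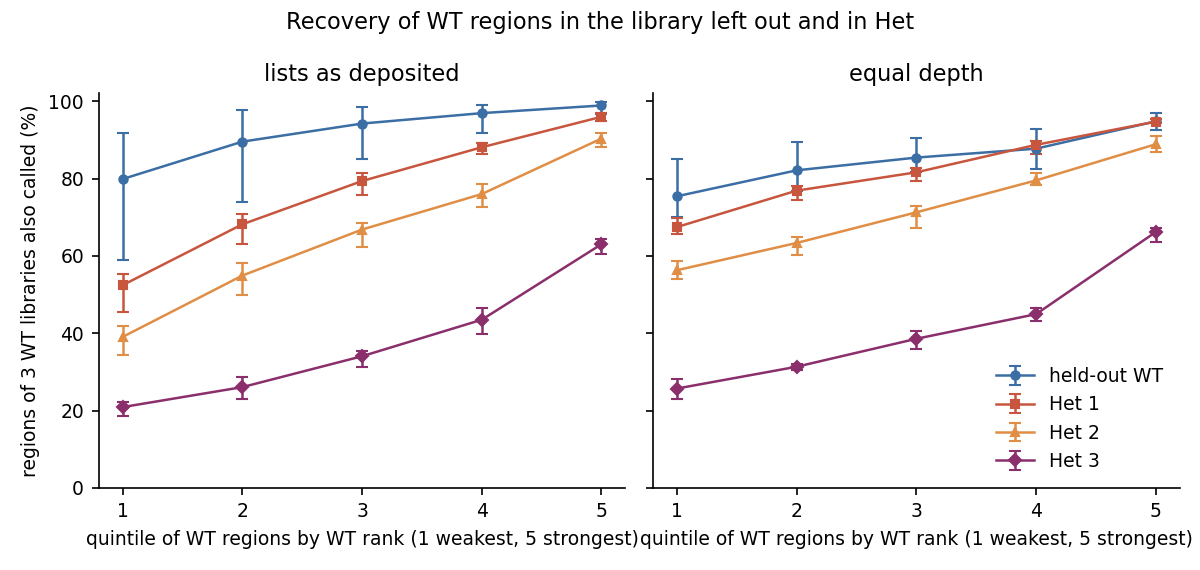
Share of the regions of 3 WT libraries that were also called in the WT library left out and in each Het library, by quintile of WT rank, as deposited (left) and at equal depth (right). Points are means over the 4 choices of the library left out and bars run from the lowest to the highest. At equal depth Het 1 follows the WT curve closely in the upper quintiles, while Het 3 stays below 70% throughout.

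Among the strongest regions, Het 3 held a smaller share of those at gene ends than of those elsewhere. In the strongest quintile it held 58.6% of 746 gene-end regions, 79.7% of 118 gene-body regions and 89.4% of 170 intergenic regions. The shares in the same order were 97.2%, 99.2% and 97.1% in Het 1 and 91.0%, 95.8% and 94.1% in Het 2, so that Het 3 held the least in every class. The median WT rank percentile of these sets also differed, at 87.9, 93.3 and 98.0, so that location and strength moved together. None of these sets was checked against a list of sites where reads collect artificially, and the part of such sites in these shares was not tested. Over all 5171 regions, 9.60% of gene-end, 9.20% of gene-body and 10.3% of intergenic regions were in no Het library, which is nearly the same share in each class. By chromosome this share ran from 5.76% on chromosome 18 to 13.0% on chromosome X, where it rested on 54 regions.

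Regions that separate the groups completely were almost all on the WT side. Of the 11514 regions, 497 were called in every WT and no Het library (4.32% of all) and 0 in every Het and no WT library (0% of all). With an exact Fisher test for each region, all 497 had an unadjusted p of 0.0286 and 0 passed after Benjamini-Hochberg adjustment (smallest adjusted p = 0.662). That unadjusted p is the smallest that 4 against 3 libraries allow. With 497 such regions among 11514 none could pass, so the test cannot judge single regions. The count of WT-only regions rests on the choice of libraries, at 975 without WT 3, 1259 without Het 1 and 852 without Het 2. A further 235 regions were called in a Het library and no WT library, and 216 of them were in 1 Het library alone.

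The same count was smaller on lists made comparable. At equal depth 208 regions were WT-only (1.98% of 10480) and 6 Het-only (0.0573%), and over 20 random draws the counts ran from 179 to 212 and from 3 to 7. These counts too rest on the choice of libraries: 588 regions were WT-only without Het 1, 415 without WT 3, 400 without Het 2 and 318 without WT 4, and Het-only regions ran from 11 to 29, the highest without Het 3. When each list was reduced to its 2583 strongest regions, the length of the Het 3 list, 36 were WT-only (0.589% of 6117) and 30 Het-only (0.49%). With lists of equal number the excess on the WT side was thus close to 0. A fixed number of regions reaches into weaker regions in Het than in WT, since the Het lists are shorter.

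**Figure D3:**
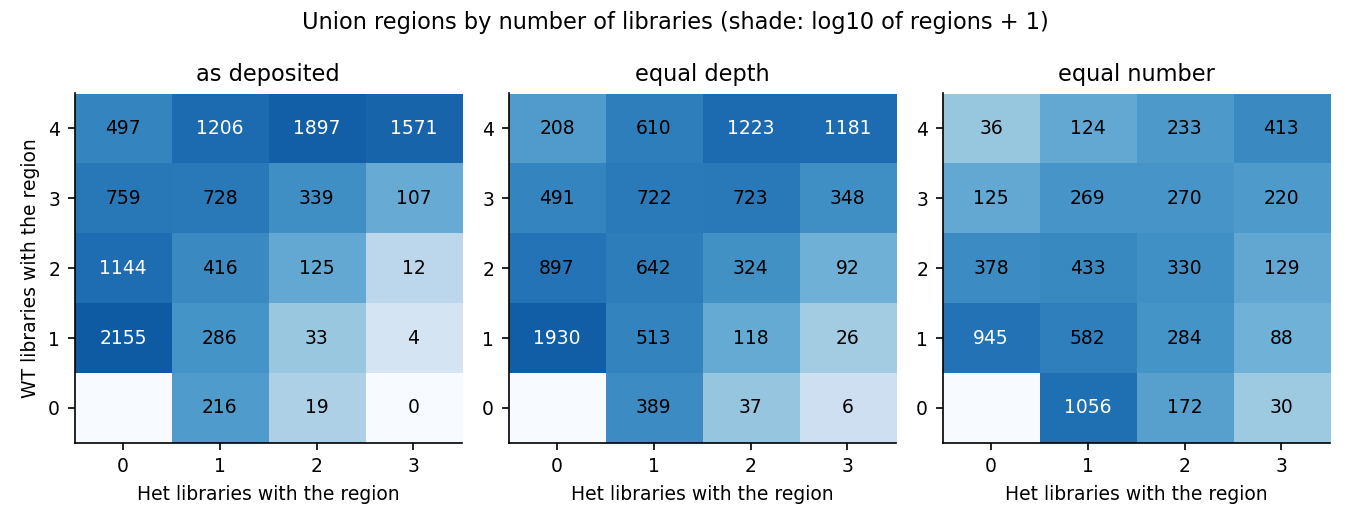
Number of union regions by how many WT libraries (vertical) and Het libraries (horizontal) called them, as deposited, at equal depth and with the 2583 strongest regions of each list. The shade is the log10 of the number plus 1. The upper left cells (497, 208 and 36) are the WT-only regions and the lower right cells (0, 6 and 30) the Het-only regions.

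The WT-only regions were weaker than the regions shared with Het and lay in the same kinds of place as WT regions in general. Gene ends held 406 of the 497 (81.7%, the same share as of all 5171 regions of the 4 WT libraries), gene bodies 53 and intergenic sequence 38. Their median WT rank percentile was 40.4 and their median WT fold 6.28, against 77.4 and 7.45 for the 1571 regions called in all 7 libraries. Only 8 of them had a median WT rank percentile of 80 or more. In the Homo lists, which played no part in choosing them, 481 of the 497 (96.8%) were called at least once and 130 (26.2%) in at least 2 libraries. Of all 5171 regions of the 4 WT libraries, 99.3% were called at least once and 58.6% in at least 2. The Homo lists held 3863, 1748 and 9587 regions. A call in at least 2 thus needs 1 of the 2 shorter lists, while a single call can come from Homo 3 alone.

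By gene, 475 protein-coding genes had a gene-end peak in every WT and no Het library. That was 5.34% of the 8888 genes with a peak in any of the 7 libraries and 9.37% of the 5067 with a peak in every WT library. At equal depth 208 of the 475 were still called in 4 of 4 WT libraries and 187 in 3 of 4. Of the WT-only regions 71.0% lay near an annotated transcription start (within 500 bp), close to the 73.3% of all regions of the 4 WT libraries.

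The strongest WT-only genes by rank, among those kept in 4 of 4 WT libraries at equal depth, had no Het call and WT folds between 5.65 and 11.1. Tada1 encodes a subunit of the SAGA histone acetyltransferase complex, and its region (WT 1, chr1:166378781-166379653) had summit folds of 8.90, 8.28, 6.16 and 11.1 in WT 1 to 4. Its rank percentiles were 94.8, 87.4, 47.7 and 97.7, so that WT 3 stood apart from the other WT libraries. Ubn1 encodes a subunit of the HIRA complex, which deposits a histone variant independently of replication. Its region (WT 1, chr16:5049845-5050177), which also lies at an end of Glyr1, had folds of 8.37, 7.27, 6.21 and 9.94 and was also called in 2 of 3 Homo libraries. Fbl encodes fibrillarin, a nucleolar enzyme that modifies ribosomal RNA, and shares its region (WT 1, chr7:28179736-28180209) with the end of the kinase gene Dyrk1b. The region lies inside Dyrk1b (28179447 to 28197910) and outside Fbl, whose higher end is at 28179269. The folds were 8.56, 7.57, 6.42 and 7.83, and at such shared ends the position does not say which gene the region serves.

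Diablo encodes a mitochondrial protein that frees caspases from their inhibitors, and its region (WT 1, chr5:123523968-123524611) had folds of 9.12, 6.30, 9.21 and 8.44 over summits of 28, 15, 27 and 26 tags. Copb2 encodes a subunit of the COPI vesicle coat, and its region (WT 1, chr9:98563471-98563866) had folds of 7.88, 8.89, 8.62 and 7.95. None of the 3 Het libraries had a call at either promoter. The end shared by Hspa14, a chaperone gene, and Cdnf had folds of 10.4, 8.06, 6.61 and 8.10, and the end shared by Dcun1d3 and Lyrm1 had folds of 9.36, 11.1, 5.65 and 7.19. Tuft1, Tmem218 and the end shared by Cyhr1 and Kifc2 made up the rest, with folds between 6.02 and 9.45.

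Mid1, which encodes a microtubule-associated ubiquitin ligase, headed the list by rank. Its region (WT 1, chrX:169991196-169991614) had rank percentiles of 94.3, 93.2, 92.4 and 97.0 on folds of only 6.28, 6.29, 5.98 and 6.81, with 52, 41, 35 and 51 tags at the summit. High tag numbers on low folds mean a high local background there. The region lies at the higher end of the gene, 111822 bp from the nearest annotated start in the promoter table, and is thus not a promoter of Mid1 in that table. It was 1 of 2 WT-only genes called in 4 of 4 WT libraries among the 2583 strongest regions.

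Away from gene ends, the strongest WT-only region was an intergenic one on chromosome 11 (chr11:3103859-3104122), 27728 bp from Sfi1. It had folds of 6.81, 8.01, 6.95 and 6.47 in WT and a median rank percentile of 96.3, and 2 of 3 Homo libraries had it. Its summits of 55, 45, 36 and 44 tags on such folds mean a high local background, as at Mid1. Neither region was checked against a list of sites where reads collect artificially, so both ranks are uncertain. An intergenic region 8792 bp from Fam229a (chr4:129500748-129501291) had folds of 7.61, 10.4, 5.96 and 9.42. Gene-body regions followed with lower ranks, among them those in Pfkfb4, which encodes a glycolytic regulator (6.73, 6.12, 6.67 and 7.59), and Dhcr7, which encodes the last enzyme of cholesterol synthesis (7.74, 6.07, 6.67 and 7.47). Both gene-body regions were near the middle of the WT lists by rank, at 63.5 and 60.7. Both also lay within 500 bp of an annotated transcription start, though away from the gene ends.

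On the Het side, Kif13a was the only gene of the 8888 with a gene-end peak in every Het and no WT library (0.0113%). It encodes a kinesin that carries vesicles along microtubules. Its summit folds were 5.17 in Het 1, 4.59 in Het 2 and 5.98 in Het 3, and its rank percentiles were 7.8, 1.5 and 50.7, so that it was among the weakest regions of the first 2 of these lists. The peak of Het 3 did not overlap those of Het 1 (chr13:46929662-46929970) and Het 2, which is why no single region of the union was Het-only.

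Kif13a included, 14 genes had a gene-end peak in at least 2 Het libraries and no WT library. Among the others were Tbp, which encodes the TATA-binding protein (folds of 6.93 in Het 1 and 5.0 in Het 2), and Cdh2, which encodes N-cadherin (5.80 in Het 2 and 5.70 in Het 3). Dlat, which encodes a subunit of pyruvate dehydrogenase, had folds of 5.73 in Het 1 and 5.88 in Het 3. Ogdhl, a gene related to the oxoglutarate dehydrogenase subunit, had 8.25 in Het 1 and 6.65 in Het 2. Each of these 4 genes lacked a peak in 1 of 3 Het libraries.

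In the random draw used for equal depth 5 genes were Het-only: Kif13a, Coq3, Acadl, Sdk1 and Aldh7a1. The genes were not followed over the other draws. Coq3 encodes an enzyme of coenzyme Q synthesis, and its deposited folds were 7.04, 6.36 and 5.81 in WT 1, WT 2 and WT 4 and 7.22, 6.59 and 5.56 in Het. Acadl encodes a mitochondrial enzyme of fatty acid oxidation, with folds of 6.62, 5.26 and 5.21 in the same WT libraries and 5.91, 7.43 and 5.67 in Het. The folds of the groups overlapped at both genes, and these genes became Het-only because thinning removed their WT summits in that draw. Before thinning these summits held 19, 13 and 14 tags in WT 1, WT 2 and WT 4 at each gene, so not all were weak. WT 3 had no peak at either gene even as deposited.

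The subunits of the SWI/SNF complexes other than the ARID proteins lost calls about as all genes did. Of 23 members, 19, 18, 15 and 17 had a gene-end peak in WT and 13, 10 and 5 in Het, a Het mean of 54.1% of the WT mean. Over all 21631 protein-coding genes the counts were 7743, 7096, 6056 and 7341 in WT and 5221, 4299 and 2267 in Het, which gives 55.7%. Smarcc2, Phf10, Pbrm1 and Bcl7c kept a peak in all 7 libraries. Smarcd1 and Actl6a, which encode shared structural subunits, were WT-only, also at equal depth, and the Smarcd1 region also lies at an end of Asic1. They were 15.4% of the 13 members called in every WT library, against 9.37% over all genes.

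The catalytic subunit gene Smarca4 had folds of 8.38, 6.98, 7.45 and 8.14 in WT and a peak of 5.79 in Het 1 alone. The core subunit gene Smarcb1 had 7.14, 9.27, 5.24 and 7.22 in WT and 7.02 in Het 1 alone. Of the ARID genes, Arid1b, the paralog that can take the place of ARID1A, had a peak in WT 2 (4.49) and WT 4 (4.85) and in no Het library. Arid2, which defines the other (PBAF) form of the complex, had one in WT 3 (4.56), WT 4 (5.0), Het 1 (4.97) and Het 2 (6.05). These are weak peaks, present in at most 2 libraries of a group.

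Other chromatin regulators and the MYC programme behaved similarly. SAGA and TFIID coactivator genes had 17, 15, 16 and 17 of 23 members in WT and 13, 9 and 5 in Het, with Tada1 and Taf4 WT-only. Histone chaperone genes had a Het mean of 61.1% of WT (Chaf1b and Ubn1 WT-only), and polycomb and trithorax genes 55.6% (Cbx2 and Kmt2a WT-only). Genes of growth that MYC regulates, 30 in number, had 26, 25, 21 and 26 in WT and 19, 18 and 9 in Het. Of these, Fbl, Nop58 and Polr1b, all of ribosome production, were WT-only, though the region counted for Fbl lies inside Dyrk1b. Ncl, Npm1, Prmt5 and Nme1 were among 9 members called in all 7 libraries. Npm1, which encodes nucleophosmin, had folds of 7.40, 5.95, 8.58 and 6.54 in WT and 8.80, 9.46 and 5.19 in Het, with Het 3 below the others. WT-only members were 15.4%, 18.2%, 15.4% and 14.3% of those called in every WT library, in the order of these lists. Over all genes the share was 9.37%, and each share of a list rests on 2 or 3 genes. Shares above it were not particular to these lists, since housekeeping genes had 18.2% of 11. Cell cycle and replication genes had 6.67% of 15, and the MYC network, with a Het mean of 66.7% of WT, had 0% of 6.

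Cytosolic ribosomal protein genes had a peak at 21, 20, 18 and 20 of 24 members in WT and at 11, 11 and 6 in Het, and no Het library reached the lowest WT library. The Het mean was 47.3% of the WT mean, against 55.7% for all genes. Rpl4 (at an end shared with Zwilch), Rpl7 (shared with Rdh10), Rpl14, Rpl32 and Rps18 were WT-only, which was 27.8% of the 18 members present in all 4 WT libraries, against 9.37% over all genes. At equal depth the means were 16 members in WT and 9.33 in Het, against 5877 and 3907 for all genes. Of the list 2 were then WT-only, and over all genes 212, out of 3192 called in every WT library at equal depth. These 212 were 2.51% of the 8445 with a peak in any library, a wider base than that of the 9.37%. For the list no share was taken at equal depth. The mouse genome holds many processed copies of ribosomal protein genes, so these calls are uncertain where reads could map to a copy.

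Cell cycle and replication genes had 24, 24, 16 and 24 of 31 members in WT and 16, 16 and 3 in Het. Het 1 and Het 2 thus matched WT 3, and Het 3 stood far below. Mcm3, a subunit of the replicative helicase, was WT-only with folds of 6.65, 6.77, 6.40 and 8.33. Ccna2, the cyclin A gene, was in all 7 libraries with folds of 9.95, 7.77, 7.91 and 10.1 in WT and 9.71, 8.51 and 7.63 in Het. Genes of the p53 pathway and apoptosis had a Het mean of 48.5% of WT. Casp9, the initiator caspase of the mitochondrial pathway, was WT-only with low folds of 5.79, 5.71, 5.14 and 5.17, while Trp53, Apaf1 and Cycs were called in all 7.

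The lists of hepatocyte function differed widely from each other. Genes of liver metabolism had 14, 12, 11 and 12 of 29 members in WT and 11, 10 and 9 in Het, a Het mean of 81.6% of WT. Of the 9 called in every WT library, 8 were called in every Het library (88.9%, against 28.1% of the 5067 genes called in every WT library), among them Acaca, Acly, Fasn, Srebf2, Hmgcs1, Gls2 and Glul. At equal depth the means were 10.25 members in WT and 10 in Het, against 5877 and 3907 for all genes.

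Fasn, the fatty acid synthase gene, had folds of 6.25, 7.99, 5.75 and 6.30 in WT and 5.99, 5.90 and 5.26 in Het. Glul, the glutamine synthetase gene, had 6.67, 9.41, 7.72 and 7.29 in WT and 9.09, 9.60 and 6.54 in Het. At both genes the folds of the groups overlapped.

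Plasma protein genes, the secretory output of hepatocytes, had a peak in few Het libraries. Their counts were 10, 7, 2 and 4 of 23 in WT and 2, 2 and 0 in Het, a Het mean of 23.2% of WT, though Het 1 and Het 2 matched WT 3. The highest count was that of WT 1, the library with the highest background of those compared. Means at equal depth were 4 members in WT and 1.33 in Het. Apoa2 and Rbp4 were in every WT library and in Het 1 and Het 2. Apoa2, an apolipoprotein of high-density lipoprotein, had folds of 7.48, 5.62, 4.90 and 8.19 in WT and 7.66 and 9.17 in those Het libraries. Alb had a peak in WT 2 alone (6.15), and the promoter of Alb is also part of Alb-cre, which only the Het mice carried.

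Liver transcription factor genes had 9, 9, 7 and 8 of 25 in WT and 6, 6 and 5 in Het, a Het mean of 68.7%. Cebpb was among the strongest regions of every list, with folds of 10.5, 10, 7.89 and 7.73 in WT and 9.09, 7.93 and 7.02 in Het. The LAP promoter of LAP-tta comes from Cebpb and all 7 tumours carried it, so tags of the gene and of the transgene cannot be told apart there. Cebpa, Nr1h3 and Zbtb20 were also in all 7 libraries. Foxa3 had folds of 6.78, 5.67, 6.16 and 4.90 in WT and one Het peak of 5.71 in Het 2, and Hnf4a, Foxa1 and Foxa2 had no gene-end peak in any library.

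The defining markers of cell types were mostly uncalled. Hepatocyte markers had 2, 3, 0 and 1 of 8 members in WT and 0 in every Het library, and Serpina1a, Tat, Cyp2e1 and Cps1 were at 0 in all 7. Markers of endothelial cells, of stellate cells and fibroblasts, of macrophages and of lymphocytes and neutrophils had 0 of 6 each in all 7 libraries. Cholangiocyte markers had 0, 0, 1 and 1 of 6 in WT and 0 in Het, and erythroid markers 1, 1, 0 and 0 in WT and 0 in Het. At this depth the lists thus neither show nor leave out other cell types, and the part of cell composition in the difference was not tested.

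**Figure D4:**
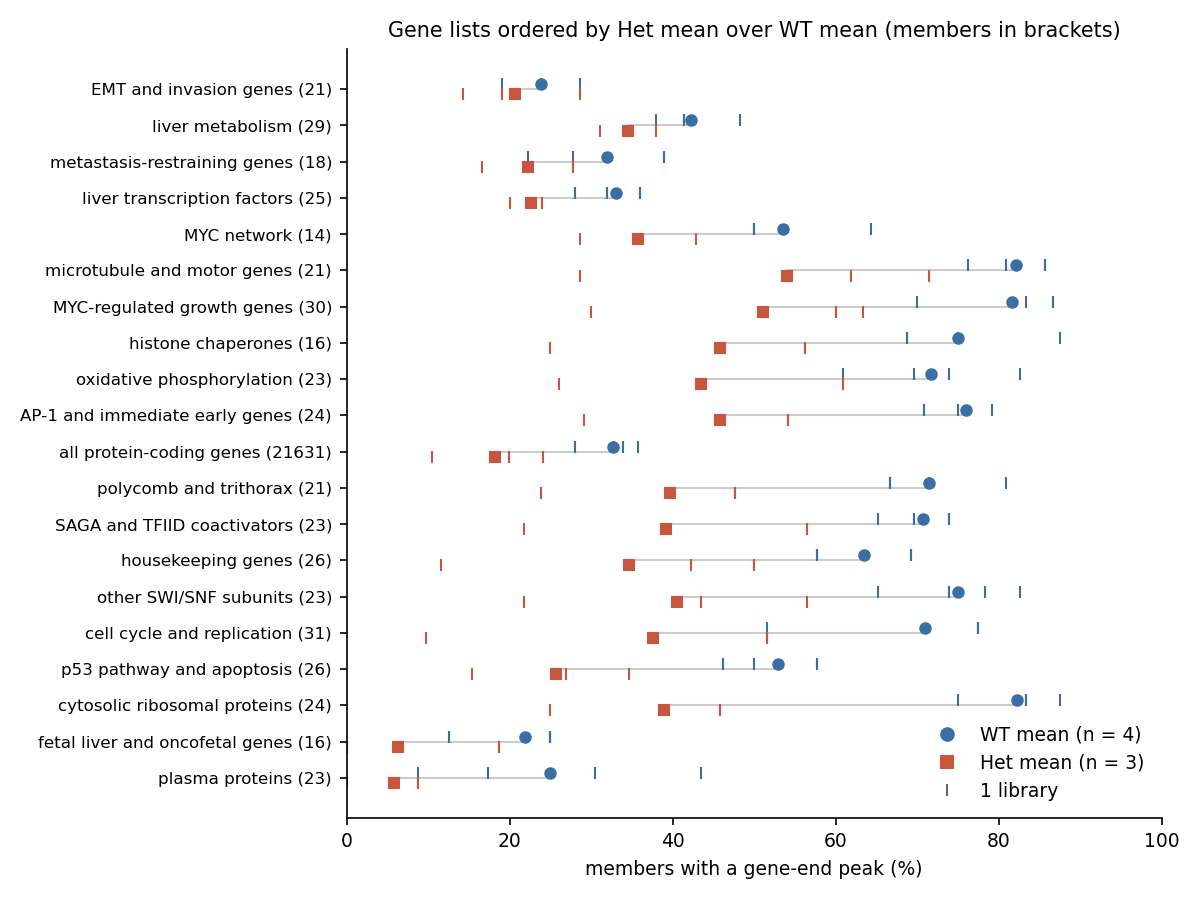
Share of the members of each gene list with a gene-end peak, for WT (circles, mean of 4) and Het (squares, mean of 3), with a tick for each library, ordered by the Het mean over the WT mean. Lists with a WT mean under 2 members are not drawn. Invasion genes (86.7%) and liver metabolism (81.6%) lie highest, fetal liver genes (28.6%) and plasma proteins (23.2%) lowest, and the other lists between 47.3% and 69.6%.

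Lists of invasion and fetal genes held few called members. Genes of epithelial-mesenchymal transition and invasion had 5, 5, 4 and 6 of 21 in WT and 6, 4 and 3 in Het (86.7%). Het 1 equalled the highest WT library here, with a peak at the fibronectin gene Fn1 (5.88), which no WT library had. Snai1, which encodes a repressor of E-cadherin, had folds of 6.57, 7.60, 7.04 and 8.44 in WT and 6.48 and 6.57 in Het 1 and Het 2. Genes that restrain metastasis had 7, 4, 5 and 7 of 18 in WT and 4, 5 and 3 in Het (69.6%), and Nme1, Rhob and Ndrg1 were in all 7.

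Among fetal liver genes, Hmga1, which encodes an architectural chromatin protein, was WT-only with low folds of 4.23, 4.48, 4.17 and 5.20. Lin28b had a peak in Het 1 alone (7.07). The counts of this list were 4, 2, 4 and 4 of 16 in WT and 3, 0 and 0 in Het, so that the Het peaks all came from Het 1.

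Microtubule and motor genes had 18, 17, 16 and 18 of 21 in WT and 15, 13 and 6 in Het (65.7%). This list held genes of every pattern: Mid1 and Mapre1 were WT-only, Kif13a was Het-only, and Kif11 and Kif21b were in all 3 Het and 3 of 4 WT libraries. The WT-only genes were 15.4% of the members called in every WT library, against 9.37% over all genes. Mapre1, which encodes a protein that tracks growing microtubule ends, had folds of 8.87, 7.72, 6.54 and 6.36. Kif11, the spindle kinesin gene, had 7.51, 6.44 and 6.65 in WT 1, WT 2 and WT 4 and 6.91, 6.07 and 6.57 in Het, with overlapping folds. Kif21b had 4.67, 6.76 and 6.83 in WT 2 to 4 and 4.50, 4.64 and 8.25 in Het 1 to 3.

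Within the 1571 regions called in all 7 libraries, ranks can be compared on a list of the same length in each library. With limma on the rank percentile, 0 regions were higher and 0 lower in Het at an adjusted p under 0.05 (0% each way; smallest adjusted p = 0.157). At an unadjusted p under 0.05 there were 76 higher and 72 lower, and with log2 folds centred on their median the split was 119 and 38. In 85 regions (5.41%) every Het rank lay above every WT rank, and in 72 (4.58%) every Het rank lay below.

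Among the largest differences, none of which passed, the end shared by Senp3, a SUMO protease gene, and Tnfsf13 (chr11:69681714-69682228) had rank percentiles of 48.8, 39.3, 45.0 and 40.01 in WT and 78.5, 73.3 and 78.7 in Het. The difference was 33.6 ± 3.68 (SE; limma adjusted p = 0.157). Tuba1b, an alpha-tubulin gene (chr15:98933913-98934743), had percentiles of 2.2, 19.1, 16.0 and 5.0 in WT and 54.6, 46.3 and 41.0 in Het, with folds of 4.81, 6.08, 5.46 and 5.22 against 7.54, 6.54 and 5.73. Cd47, which encodes a surface protein that restrains phagocytosis (chr16:49855203-49855976), had 25.9, 17.4, 20.8 and 43.1 in WT and 86.3, 63.2 and 75.4 in Het. Zswim4, the end shared by Rab13 and Rps27 and the end shared by Timm29 and Yipf2 had the same non-overlapping order.

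On the lower side, Ncapg, which encodes a condensin subunit (chr5:45669568-45670044), had percentiles of 90.2, 70.0, 55.5 and 61.3 in WT and 15.7, 5.8 and 1.7 in Het. The difference was -61.5 ± 9.13 (SE; limma adjusted p = 0.171). Ergic2, a gene of transport between endoplasmic reticulum and Golgi (chr6:148211709-148212373), had 85.5, 88.2, 81.7 and 85.9 in WT and 47.5, 27.0 and 14.0 in Het. Its folds of 10.3, 10.8, 8.90 and 9.64 in WT and 7.84, 6.44 and 5.45 in Het did not overlap either. Cbfb, the partner of the RUNX factors, had 59.6, 62.1, 42.0 and 54.7 against 27.7, 23.1 and 23.9, and the end shared by Hs2st1 and Selenof had 88.6, 90.3, 80.9 and 90.4 against 40.04, 58.7 and 31.0.

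**Figure D5:**
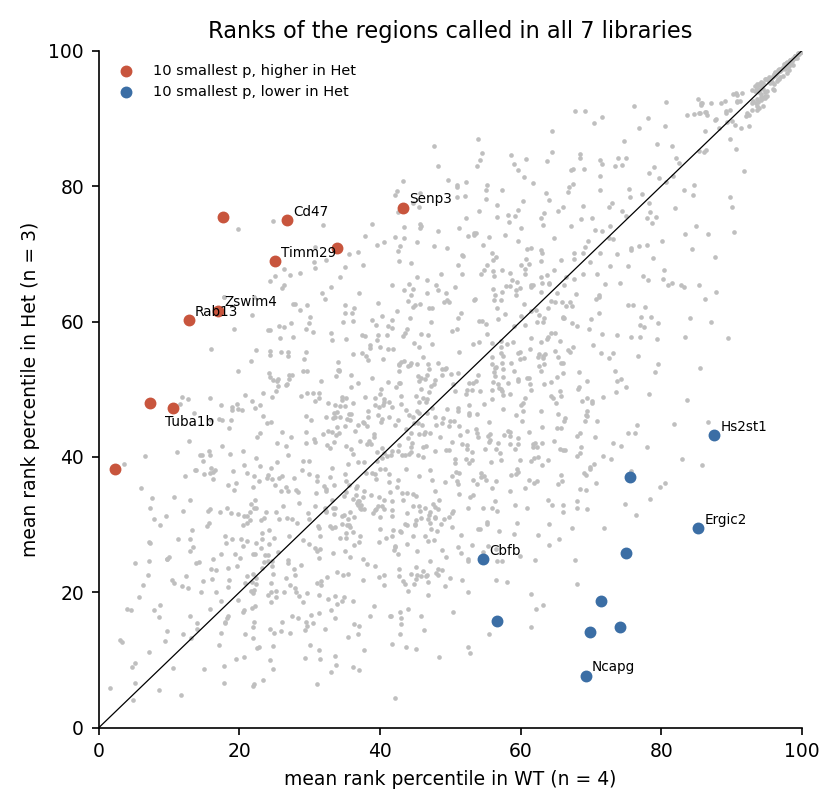
Mean rank percentile of each of the 1571 regions called in all 7 libraries, in WT (horizontal, n = 4) and Het (vertical, n = 3), with the line of equal ranks. Coloured points are the 10 regions each way with the smallest p, 10 of them named by a gene at the region, and none passed the adjusted threshold. Points scatter widely around the line except at the top right, among the strongest regions.

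Leaving out 1 library let a few regions pass. Without Het 1, Rragc, Klf7 and Syde2 were higher and Ergic2, Ddx20, Alg14 and Actr3 lower, with limma adjusted p between 0.036 and 0.043. Without Het 3, Eno1 and Tatdn2 were lower (limma, adjusted p = 0.046 for both). Arih1 was lower without WT 1 (limma, adjusted p = 0.016) and Chchd3 without WT 4 (limma, adjusted p = 0.025). No region passed in more than 1 of these fits.

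The Het libraries also differed strongly among themselves. Of the 5171 regions of all 4 WT libraries, 1509 were in Het 1 and Het 2 but not Het 3, 762 in Het 1 alone, 356 in Het 2 alone and 88 in Het 3 alone. Herc4, a ubiquitin ligase gene, had rank percentiles of 94.4, 90.0, 92.1 and 64.9 in WT but 94.7, 29.1 and 0.7 in Het 1 to 3. Cks2, which encodes a binding partner of cyclin-dependent kinases, had 89.1, 79.5, 63.6 and 68.1 in WT and 24.6, 93.9 and 2.5 in Het. The end shared by Ndufa13 and Tssk6 had 64.0, 69.2, 79.8 and 90.7 in WT and 96.6, 30.9 and 4.8 in Het. At these genes Het 1 or Het 2 ranked above every WT library while Het 3 ranked near the bottom of its own list. The genes were picked for the widest range of ranks among the Het libraries. These percentiles are within full lists, of 9526 regions in WT 1 and 2583 in Het 3. A low percentile in the shorter list can thus be as many places from the top as a higher one in WT.

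Shared base pairs over combined base pairs (the Jaccard index) averaged 0.514 between pairs of WT libraries, 0.297 between pairs of Het libraries and 0.320 between groups. The excess within groups was 0.122 (one-sided exact permutation p = 0.0286, the smallest possible), 0.0809 at equal depth and 0.0436 with equal numbers of regions, at the same p. The WT pairs carried it, since the Het pairs (0.387, 0.247 and 0.257) averaged below the pairs across groups.

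The Homo lists offer regions that neither group chose. Of 3855 regions called in at least 2 Homo libraries, WT 1 to 4 held 95.0%, 92.0%, 85.5% and 93.5%, and Het 1 to 3 held 79.7%, 68.8% and 46.4%. The difference of means was -26.5 percentage points (exact permutation p = 0.0286, adjusted 0.049). At equal depth the WT values were 76.7%, 85.3%, 79.6% and 80.4% and the Het values 79.5%, 68.8% and 45.7%, so that Het 1 lay within WT, and the difference of -15.8 points did not pass (exact permutation p = 0.0571).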

How the data were processed

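Peak lists of ATAC-seq libraries were used as the authors deposited them, each called on its own library. The submitters' processing notes name Bowtie2, MACS2, deepTools and the mm10 build, without versions. For caller settings, read filters, the transposase shift and read totals the sources used here give nothing. Per the file headers and values, the deposited score equals 10 times −log10 p with its decimals dropped. The deposited fold is a ratio of summit pileup to background, and the deposited −log10 p and −log10 q rest on that pileup. The lists hold no read counts per region, so presence and rank were compared.

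For each row, the integer pileup and the Poisson mean that give both its fold and its −log10 p (tolerance 0.001) were searched, and 100% of rows had a match. Depth was read as the lowest background that 10 or more rows have in common, and it limits which weak regions can be called. For equal depth, summit pileups were thinned binomially to the shallowest of the 7 libraries (0.655 tags), keeping −log10 p of at least 5. Peaks on chromosome Y and the mitochondrial genome were left out, and overlapping peaks were merged. Gene-end peaks lie within 1000 bp of either end of one of 21631 protein-coding genes in RefSeq's GRCm38.p6 annotation. Of 502 entries in 28 gene lists, 501 were found. Means were compared by exact permutation over 35 splits, two-sided unless stated, and ranks with limma 3.58.1 in R 4.3.3. Scripts were tested on simulated data. The members and lists were chosen with earlier results of these data known.

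Named genes and regions are the SWI/SNF subunits; up to 15 WT-only genes that stay in 4 of 4 WT libraries at equal depth, by WT rank; up to 10 Het-only regions or genes in each kind of list and up to 10 WT-only regions away from gene ends, by rank; up to 10 regions each way by limma's p; up to 4 members of each list with the largest difference in share of libraries; and up to 4 genes that differ most among Het libraries. Alternatives were equal depth, equal number, a stricter threshold, other windows, overlaps and scales, each library left out, and the replicate number as a block.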

Additional observations from a re-analysis of the deposited data

Results flagged for a closer look

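Among 57 sets of 4 WT values checked for a value far from the other 3, 5 had one. For continuous values chance gives about 1 in 20, but 4 of these 5 sets are small whole-number counts with 3 equal values, where any departure stands out, so that rate does not apply to them. WT 3 had the lowest median summit fold over the regions called in all 7 libraries, 7.04 against 7.55 to 7.62 in the other WT libraries. It also had a gene-end peak at 16 of 31 cell cycle and replication genes, against 24 in each of the others. WT 1 had 9 of 14 genes of the MYC network against 7 in each of the others. WT 4 had 0 of 18 cytochrome P450 genes against 1 in each of the others, and WT 2 had 2 of 16 fetal liver genes against 4. Homo 3, a library outside the comparison, had 9587 regions, more than any of the 7 libraries compared, at a background of 1.61 tags.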

How the results depend on the processing

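The differences in number and length of regions between Het and WT kept their sign under every alternative run, but 35 splits leave no room for a smaller p, and with a library left out no p can fall below 0.0667 or 0.1. At equal depth the share of Homo regions differed by -15.8 points (exact permutation p = 0.0571), 208 regions were WT-only and 6 Het-only. With equal numbers of regions the gene-end share differed by -1.49 points and the share of Homo regions by 2.06 points, both against the sign of the full lists, and 36 and 30 regions were WT-only and Het-only. With −log10 p of at least 10, the differences were -3831 regions and -1.82 Mb (both exact permutation p = 0.0571), the gene-end share differed by -2.54 points and 1 region was Het-only. Requiring 50% of a region to be covered gave 824 and 1, and joining all 10 lists, added after seeing the data, gave 1 Het-only region. The cause of these changes was not tested.

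Leaving out each library in turn gave differences of -4651 to -3044.5 regions, -2.14 to -1.56 Mb, 0.257 to 2.83 points of gene-end share and -33.9 to -17.3 points of Homo regions. WT-only regions ran from 549 to 1259 (975 without WT 3, 1259 without Het 1, 852 without Het 2), Het-only from 0 to 10, the Jaccard excess from 0.0715 to 0.209, and limma calls from 0 to 3 higher and 0 to 4 lower. With a library left out at equal depth, added after seeing the data, the ranges were -3072.5 to -1437 regions, 246 to 588 WT-only and 11 to 29 Het-only. Same-numbered WT and Het libraries did not deviate together (correlations of 0.0028, -0.0357 and 0.103 over the common regions, and 1 of 3 Het libraries closest to its own number). With the replicate block the differences were -3856 regions and -1.80 Mb (exact sign-flip p = 0.25, the smallest possible) and 0 limma calls.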
